A study of Mus musculus with 2 samples.

Results

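The calpain system was examined in cultured bone marrow-derived macrophages of calpain-6-deficient and wild-type mice. The 10 genes are the targeted gene Capn6, the calpains Capn1, Capn2, Capn3, Capn5, Capn7, Capn10 and Capn15, the small regulatory subunit Capns1 and the inhibitor calpastatin (Cast). They were found as the non-control probes whose RefSeq accession belongs to one of these genes. This gave 13 probes for 10 genes, of 55678 probes and 20660 named genes on the array. Of them, 11 probes for 9 genes were measured, that is, well above background on both arrays.

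Each genotype was 1 single-colour array of pooled cells. The first, Capn6-Ko, is macrophages of calpain-6-deficient mice, and the second, Capn6-Wt, those of wild-type mice. Both cultures came from femoral marrow of male mice grown with 10% serum, 50 ng/mL of the macrophage growth factor M-CSF and 10 ng/mL of the inflammatory cytokine TNF-α, so both were exposed to TNF-α and no culture without it was compared. The day of culture is 3 or 4, depending on the label, the series text gives 4 mice, pooled, without saying whether that is per genotype, and neither the strain and age of the mice nor how Capn6 was disrupted is stated there. With no replicates, no test between genotypes was run, and every value describes these 2 pools.

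Calpains are cytosolic cysteine proteases that calcium activates, and they cut their substrates at few sites, changing rather than destroying them. The classical enzymes, μ-calpain and m-calpain, each join a large catalytic subunit (Capn1 or Capn2) with the small subunit Capns1, and calpastatin binds and blocks both. In macrophages and other migrating cells they are known for cutting talin and other adhesion proteins, which lets adhesions turn over. Calpain-6 lacks the catalytic cysteine and is therefore not a protease. It is known mainly from embryonic muscle and placenta, and it binds and stabilises microtubules.

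The Capn6 probe was not well above background in either pool, whereas 1 or more probes of each of the other 9 genes were lit on both arrays. The letters upstream of some of these genes are shown because genes with and without CpG-rich starts were detected at different rates on these arrays. CpG-rich here means at least 55% G and C, and a CpG count of at least 0.6 of that expected from the base composition, over the 250 bases before a start. By this measure 27.6% of the 32851 RefSeq starts in the table were CpG-rich. Of array genes with a CpG-rich start, 83.8% (5811 of 6931) were measured, and of those without one 47.5% (4490 of 9443). Among the 9 of the 10 genes that the table holds, Capn2, Capn7, Capn10 and Capn15 had a CpG-rich start and all were measured. Capn6, Capn1, Capn3, Capns1 and Cast had none, and all but Capn6 were measured. The motif searched was CG, which reads the same on both strands. The sequences are RefSeq's on build GRCm38.p6, written 5′ to 3′ on the strand of the gene, with each CG in capitals. Capn6 (chrX:143827413-143827662, minus strand) held 5, Capn2 (chr1:182517611-182517860, minus strand) 19, and the starts of Capn3 (chr2:120463343-120463592 and chr2:120476659-120476908, plus strand) 4 and 3, where the median over all starts was 6.
Capn6: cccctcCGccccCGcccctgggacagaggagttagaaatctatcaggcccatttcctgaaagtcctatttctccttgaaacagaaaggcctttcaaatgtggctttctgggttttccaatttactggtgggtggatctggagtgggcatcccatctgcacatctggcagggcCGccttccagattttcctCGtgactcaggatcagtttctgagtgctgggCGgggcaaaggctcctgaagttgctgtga
Capn2: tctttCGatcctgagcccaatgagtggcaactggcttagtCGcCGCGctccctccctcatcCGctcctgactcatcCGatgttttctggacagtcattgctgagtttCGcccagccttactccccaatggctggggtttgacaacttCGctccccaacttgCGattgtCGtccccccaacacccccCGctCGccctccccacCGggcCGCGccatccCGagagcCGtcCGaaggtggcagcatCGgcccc
Capn3 first start: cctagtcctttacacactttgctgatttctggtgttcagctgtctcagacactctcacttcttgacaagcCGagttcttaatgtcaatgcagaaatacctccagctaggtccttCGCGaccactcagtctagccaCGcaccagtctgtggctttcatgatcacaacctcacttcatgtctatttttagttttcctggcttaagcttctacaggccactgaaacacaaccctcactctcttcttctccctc
Capn3 second start: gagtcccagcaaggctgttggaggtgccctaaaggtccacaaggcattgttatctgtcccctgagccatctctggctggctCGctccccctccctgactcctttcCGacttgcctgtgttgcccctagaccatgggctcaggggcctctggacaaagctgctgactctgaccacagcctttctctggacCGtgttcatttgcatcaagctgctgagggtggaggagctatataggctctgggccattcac
A CpG count describes these letters only. Capns1, one of the genes measured without a CpG-rich start, held 9 CG in 46.4% G and C.

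The targeted gene was read by 1 probe, A_52_P474089, on 1 spot per array. Its processed signal, the brightness of the spot after the background is removed, was 8.65 on the Capn6-Ko array and 3.93 on the Capn6-Wt array. The scanner software gave errors of 3.49 and 3.94 for these readings, so the Capn6-Wt reading was no larger than its error. Neither reading was well above background, where the lowest such signal was 14.0 on the Capn6-Ko array and 16.6 on the Capn6-Wt array. The brighter of these dim readings was thus on the array labelled as deficient. On that array 0 of 304 negative control spots were brighter than the Capn6 probe, and on the Capn6-Wt array 139 of 298 (46.6%) were. Control spots flagged as outliers were left out of these counts, among them a spot at 27.2 on the Capn6-Ko array. The Capn6-Wt share says little about Capn6, since that reading was no larger than its error.

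The negative control is 1 sequence, and many other dim probes also exceeded it. Of the 26010 probes not well above background on either array, 34.4% were brighter than the brightest negative control spot on the Capn6-Ko array. On the Capn6-Wt array 35.8% were, in both cases with outlier control spots left out. The Capn6-Ko signal of the Capn6 probe was reached or passed by 19.0% of these probes, and 3.11% had a log2 difference in the same direction at least as large. Another scanner flag, for signal significantly above background, was set for the Capn6 probe on the Capn6-Ko array only. Of the 26010 probes, 47.9% carried that flag on the Capn6-Ko array and 45.7% on the Capn6-Wt array. No fold is given for Capn6, and the probe does not check the genotype labels. No source used here says whether its target lies in the disrupted part of the gene.

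**Figure D1:**
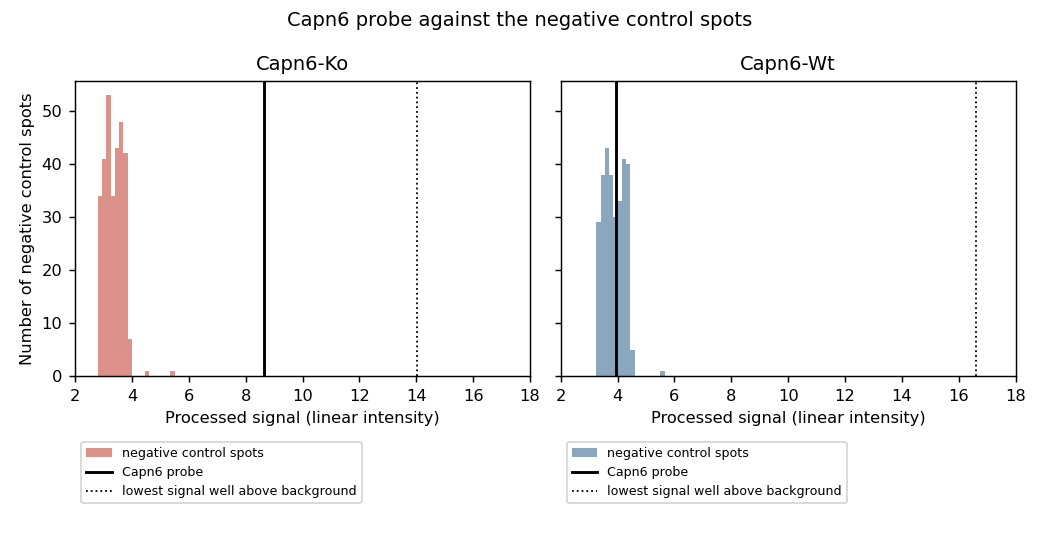
Histograms of the processed signal (linear intensity, x axis) of the negative control spots on the Capn6-Ko array (left) and the Capn6-Wt array (right), with the number of spots on the y axis. The solid line is the Capn6 probe, at 8.65 and 3.93, and the dotted line the lowest signal well above background, at 14.0 and 16.6. The probe lies beyond the control spots on the Capn6-Ko array and among them on the Capn6-Wt array, and short of the dotted line on both. Control spots flagged as outliers are not drawn.

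Signals of different probes cannot be ranked as amounts of RNA, since probes bind with different strength, so each gene is compared only with itself. Differences are given as log2 of Capn6-Ko over Capn6-Wt, after each array was scaled to its 75th percentile. The ± is the SD expected from the spread between spots of 1 probe at that brightness, and it leaves out mice, culture, RNA extraction and labelling. The scanner software also reports an error for each spot. For the calpain system probes it was wider than the spot-to-spot SD, and it is given where the results turn on it. A gene was counted as higher or lower when its log2 difference was 0.32 or more in size, the counted size.

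Of the 9 measured genes, 2 were higher in Capn6-Ko by the counted size, Capn3 and Capn5, where 2.64% of all 12875 measured genes were. None was lower by it, where 5.53% of all measured genes were. None reached 2-fold in either direction, where 0.0932% of all measured genes did. The median difference of the 9 was 0.011, beside -0.0056 over all measured genes, with 5 above 0 and 4 below.

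**Figure D2:**
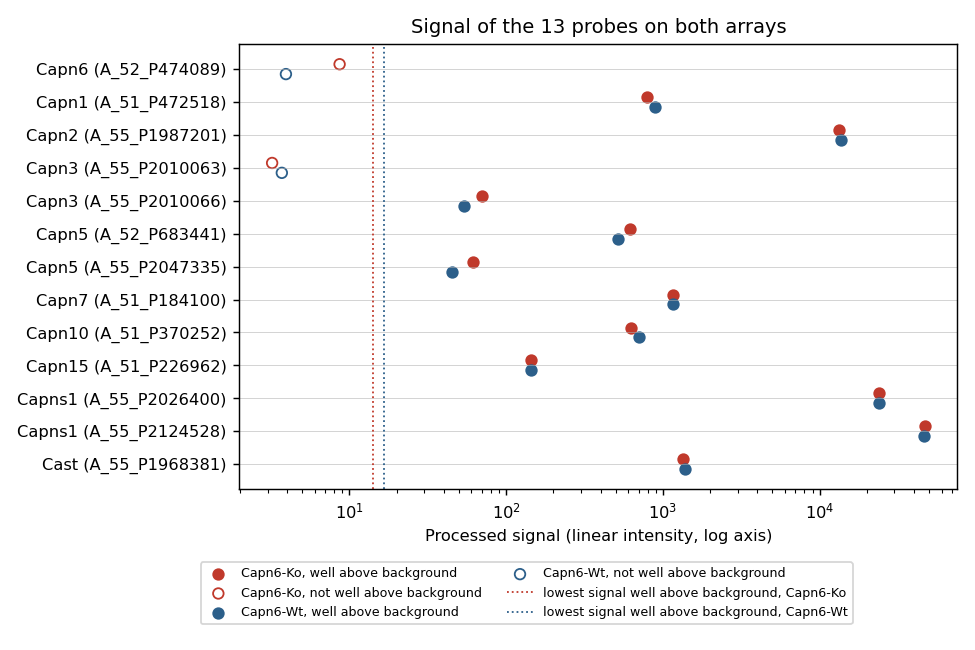
Processed signal (x axis, linear intensity on a log scale) of all 13 probes, with Capn6-Ko above Capn6-Wt in each row. Filled points are well above background and open points are not, and the dotted lines mark the lowest signal well above background on each array. The points of the probe for Capn6 and of 1 Capn3 probe are open on both arrays, and the Capn3 and Capn5 points that are filled lie further right for Capn6-Ko.

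The catalytic subunit of μ-calpain, Capn1, had a signal of 792 in Capn6-Ko and 896 in Capn6-Wt. This is a difference of -0.16 ± 0.088, which is 1.84 times the spot-to-spot SD but within the SD of 0.20 that the scanner software gives for it. The catalytic subunit of m-calpain, Capn2, had a signal of 13334 in Capn6-Ko and 13625 in Capn6-Wt. Its difference of -0.013 ± 0.082 is smaller than either error. Transcripts of both classical proteases were therefore detected on both arrays, with Capn1 slightly dimmer in Capn6-Ko and Capn2 at nearly the same signal.

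The small subunit Capns1, without which Capn1 and Capn2 are unstable, was read by 2 probes. The probe A_55_P2026400 had a signal of 23932 in Capn6-Ko and 23742 in Capn6-Wt. The probe A_55_P2124528 had 46859 in Capn6-Ko and 46370 in Capn6-Wt. Their differences, 0.030 and 0.033, lay 0.0037 apart, closer than those of 97.9% of the 3331 genes with more than 1 measured probe. The gene value was 0.031 ± 0.058.

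Calpastatin, the dedicated inhibitor of the classical calpains, had a signal of 1347 in Capn6-Ko and 1382 in Capn6-Wt, a difference of -0.018 ± 0.080. Catalytic subunit Capn2, small subunit and inhibitor were thus each within their spot-to-spot SD of no difference. With 1 pool per genotype this does not show that they are alike between genotypes.

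**Figure D3:**
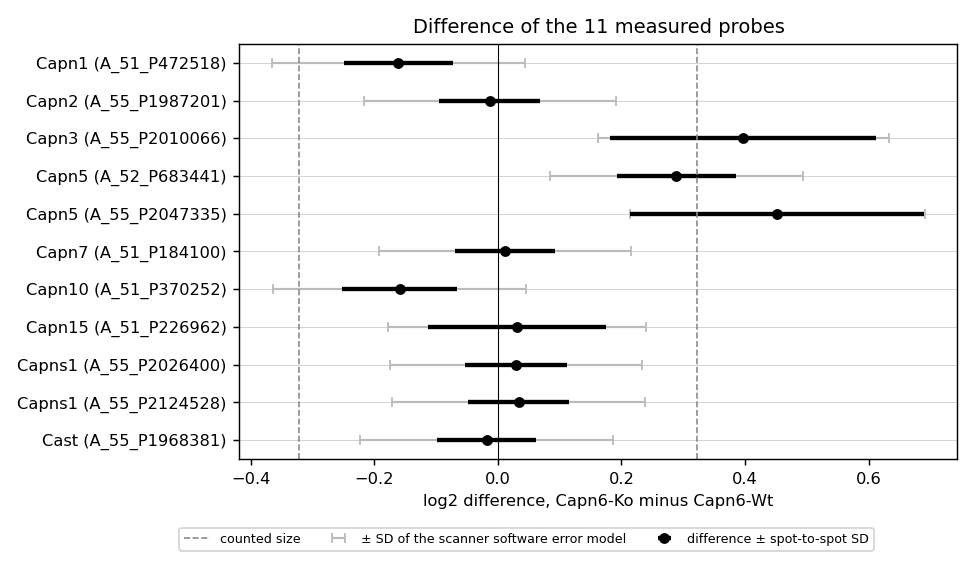
log2 difference, Capn6-Ko minus Capn6-Wt (x axis), of the 11 measured probes. Black bars are ± the spot-to-spot SD, grey bars ± the SD of the scanner software's error model, and dashed lines mark the counted size of 0.32. The probes of Capn3 and Capn5 are those whose grey bars do not cross 0, and those of Capn1 and Capn10 lie below 0 with grey bars that cross it.

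Capn5 is an atypical calpain that, like calpain-6, ends in a C2-like domain instead of the calcium-binding EF-hand domain of the classical enzymes, but unlike it keeps its catalytic residues. The brighter of its probes, A_52_P683441, had a signal of 621 in Capn6-Ko and 514 in Capn6-Wt, a difference of 0.29 ± 0.096. The dimmer, A_55_P2047335, had 61.0 in Capn6-Ko and 45.2 in Capn6-Wt, a difference of 0.45 ± 0.24. Both probes were brighter in Capn6-Ko and both differences passed the scanner software's SD, which was 0.20 for the first and 0.24 for the second. The gene value, their mean, was 0.37 ± 0.13, or 1.29-fold, and 2.88 times its spot-to-spot SD. The brighter probe alone does not reach the counted size, and after another background correction (normexp) the gene value was 0.25.

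The probes of Capn5 lay 0.16 apart, and 32.2% of the genes with more than 1 measured probe had a wider gap, with a median of 0.10 over all 3331. Around each of the 13 probes, the measured spots within 5 rows and columns (38 to 65 spots) had a median difference between -0.048 and 0.040, and around the Capn5 probes it was -0.048 and -0.020.

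Capn3 is the calpain of skeletal muscle, where its loss in humans causes a limb-girdle muscular dystrophy, and it has transcript forms with different starts. The probe for NM_007601, A_55_P2010066, had a signal of 70.1 in Capn6-Ko and 53.9 in Capn6-Wt. The probe for NM_001177799, A_55_P2010063, had 3.21 in Capn6-Ko and 3.70 in Capn6-Wt and was not well above background on either. The lit probe was brighter in Capn6-Ko by 0.40 ± 0.22, or 1.32-fold, which is 1.85 times the spot-to-spot SD and also past the scanner software's SD of 0.24. With normexp the difference was 0.18, and with the dark probe averaged in it was 0.10, both short of the counted size. The scanner software's SD for the difference of the dark probe was 2.05, so the averaged value says little about Capn3. Which of the starts shown above either probed form uses is not given in the table used here.

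Markers of skeletal muscle were mostly dark. Of 8 listed, 6 (Ckm, Des, Myh1, Myh4, Myod1, Myog) were not well above background on either array, and the summed signal of the list was 197 in Capn6-Ko and 246 in Capn6-Wt. The 1 measured, Acta1, was at -0.45 ± 0.14. Tnnt3 was not dark on both arrays but was not measured. The part of muscle cells in the Capn3 value was not tested.

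Level matters for how these counts read. Capn3, Capn5 and Capn15 lie below the median level of measured genes, where 4.6% of genes were higher by the counted size and 10.2% lower. The 6 others lie above it, where 1.57% of genes passed it in either direction and none of these 6 did.

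**Figure D4:**
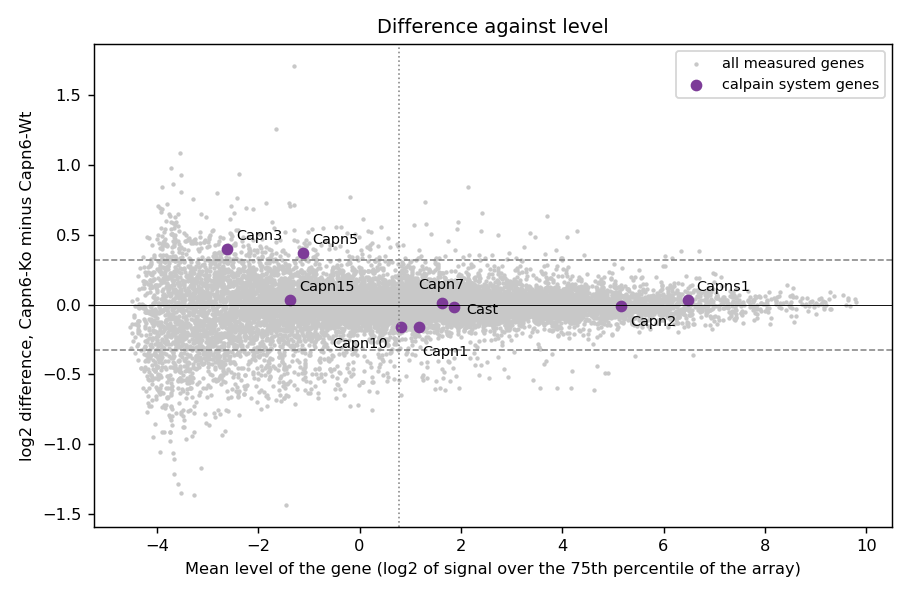
log2 difference, Capn6-Ko minus Capn6-Wt (y axis), against the mean level of each gene relative to the 75th percentile of its array (x axis), for the 12875 measured genes (grey) and the 9 measured calpain system genes (purple). Dashed lines mark the counted size of 0.32 and the dotted line the median level. Capn3 and Capn5 lie above the upper dashed line on the dim side, where the grey cloud is wide, and the 6 genes right of the dotted line lie between the dashed lines.

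Capn7, Capn10 and Capn15 are atypical calpains without the EF-hand domain. Capn7, which binds ESCRT proteins of the membrane-sorting machinery, had a signal of 1156 in Capn6-Ko and 1162 in Capn6-Wt, a difference of 0.011 ± 0.081. Capn10, whose human gene was studied for links to type 2 diabetes, had 621 in Capn6-Ko and 702 in Capn6-Wt. Its difference of -0.16 ± 0.093 is like that of Capn1, 1.71 times the spot-to-spot SD and within the scanner software's SD of 0.20. Capn15, a zinc finger calpain related to the fly gene small optic lobes, had 145 in Capn6-Ko and 143 in Capn6-Wt, a difference of 0.031 ± 0.14. Of these 3, Capn10 is the one whose difference passes its spot-to-spot SD.

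Across the 11 scalings, filters and summaries tried, Capn1 stayed below 0 (-0.18 to -0.096) and so did Capn10 (-0.18 to -0.051). Capns1 (0.013 to 0.096) stayed above 0, as did Capn15 (0.013 to 0.096) in the 10 that keep it, since it drops out where only probes above the median level are used. Capn2 (-0.031 to 0.063), Capn7 (-0.0070 to 0.076) and Cast (-0.089 to 0.046) changed sign. The sign of these 3 thus depended on the setting. All settings use the same arrays, so a sign that held does not settle a direction between genotypes. The array's E1A control probes bear on the scale: 8 of 10 were well above background, and all 8 were dimmer in Capn6-Ko, by differences of -0.10 to -0.047. Scaled on their median, -0.056, each calpain system gene is higher by that amount and the count is again 2 higher and 0 lower. On that scale 4.01% of all measured genes were higher by the counted size and 4.33% lower.

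The rest of the calpain family was mostly near or below background. Capn11, known from testis, was measured with a signal of 525 in Capn6-Ko and 531 in Capn6-Wt, a difference of 0.0039 ± 0.098. Capn12, known from hair follicles, had 19.5 in Capn6-Ko and 26.5 in Capn6-Wt on its lit probe, a difference of -0.42 ± 0.32, and its other probe was dark on both arrays. This passes the counted size, with a scanner software SD of 0.42, as large as the difference.

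Some of this family were lit on the Capn6-Ko array only. Capn9, a stomach calpain, had a probe at 23.1 in Capn6-Ko and 15.1 in Capn6-Wt, a bound of at least 1.41-fold higher in Capn6-Ko. The other Capn9 probe was dark on both. Capns2, a second small subunit, had 19.1 in Capn6-Ko and 12.7 in Capn6-Wt, at least 1.16-fold higher. For each bound the lit signal was divided by the floor of detection on the Capn6-Wt array, the 16.6 given above, or by the dim reading where that was higher, after scaling. The bounds leave out the error of the spots. The scanner software's SD of the log2 difference was 0.49 for the lit Capn9 probe and 0.52 for Capns2. Of the 1412 probes lit on the Capn6-Ko array only, 35.3% had a bound past the counted size. The probes of Capn8, another stomach calpain, and Capn13 were not well above background on either array.

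Genes that work with calpains showed small differences. Of all measured genes 8.17% passed the counted size in either direction, so a short list with none past it is near that share. All 4 listed relatives of Capns1 in the penta-EF-hand family were measured and none passed the counted size, with a median of 0.070. The furthest were Gca, grancalcin (0.20 ± 0.19), and Pdcd6, the adaptor ALG-2 (0.11 ± 0.082). All 7 listed ESCRT partners of Capn7 and ALG-2 were measured and none passed, with a median of 0.041. The furthest were the ATPase Vps4b (0.18 ± 0.078) and Chmp1b (0.14 ± 0.083).

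Of 18 adhesion and cytoskeletal substrates of calpains, all measured, 1 was lower by the counted size and none higher, with a median of -0.0074. The 1 was Cttn, cortactin, which organises branched actin, with a mean signal of 241 in Capn6-Ko and 317 in Capn6-Wt over 2 probes and a difference of -0.40 ± 0.16. A count of 1 in 18 is near the 5.53% of all measured genes that were lower by that size, and Cttn lies below the median level, where 10.2% were. Of 16 substrates in signalling and cell death, 15 were measured and none passed, where 8.17% of all measured genes did in either direction. Their median was 0.0076. Among the furthest was the protein kinase C gene Prkca (-0.13 ± 0.090). Casp12 was dark on both arrays.

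All 14 calcium entry and store genes were measured and none passed, where 8.17% of all measured genes did in either direction. Their median was 0.023, and the furthest were the calcium pump Atp2a2 (-0.24 ± 0.081) and the IP3 receptor Itpr1 (-0.12 ± 0.085).

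The cells carried macrophage markers, and markers of stromal fibroblasts differed between the pools. All 9 macrophage markers with a probe were measured, 1 of them higher by the counted size (Cd14, 0.36 ± 0.075), with a summed signal of 376955 in Capn6-Ko and 356047 in Capn6-Wt. Of 12 stromal markers 11 were measured, 8 lower by the counted size and none higher, with a summed signal of 20508 in Capn6-Ko and 31059 in Capn6-Wt. Lum was dark on both arrays. By the counted size, 2.64% of all measured genes were higher and 5.53% lower. Below the median level these shares were 4.6% and 10.2%. In bulk RNA, fewer cells of a type and less RNA per cell cannot be told apart. The stromal list was lower in Capn6-Ko, as were Capn1, Capn10 and Cttn, while Capn3 and Capn5 were higher, and its part in those values was not tested.

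**Figure D5:**
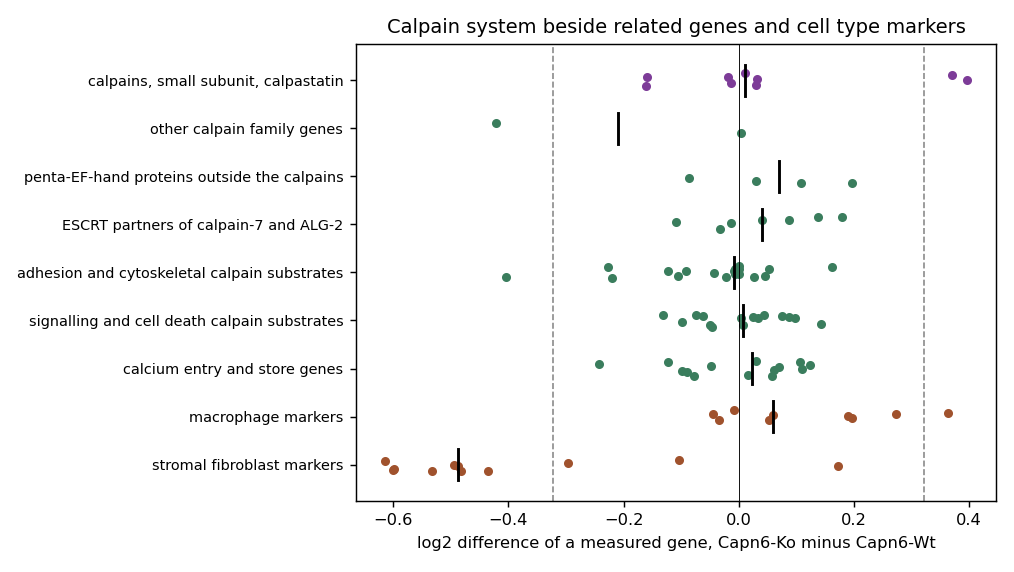
log2 difference, Capn6-Ko minus Capn6-Wt (x axis), of each measured gene in the calpain system (purple), in 6 lists of related genes (green) and in 2 lists of cell type markers (brown). Vertical bars are list medians and dashed lines mark the counted size of 0.32. The medians of the calpain system and of most related lists lie near 0, that of the other calpain family genes rests on 2 genes, and that of the stromal markers lies left of the dashed line.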

How the data were processed

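The authors deposited 1 scanner file per array, written by version 10.10.1.1 of Agilent Feature Extraction, per the file headers. It holds each spot's processed signal, an intensity on a linear scale that is background-subtracted within the array and not scaled between arrays, and 0 or 1 flags. The authors' value table holds the same intensity times 1 constant per array, 2.42 for Capn6-Ko and 2.39 for Capn6-Wt, over all 59305 rows. Its column medians were 50.7 for Capn6-Ko and 53.0 for Capn6-Wt. It is uncentred and has no direction, and no source used here says how the constants were chosen. The array design is annotated on mm9. Both arrays were on 1 slide and in 1 scan, per the file headers.

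Control spots and outlier spots (136 on Capn6-Ko, 161 on Capn6-Wt) were left out, and no spot was saturated. Of non-control spots 52.8% on Capn6-Ko and 51.7% on Capn6-Wt were well above background, and the 75th percentile was 372 on Capn6-Ko and 377 on Capn6-Wt. The log2 signal was taken relative to that percentile. Repeated spots were averaged per probe. Measured probes are those with the majority of spots flagged well above background, on each array. A gene is the mean of its measured probes. Names come from RefSeq accessions in a GRCm38.p6 gene table. The spot-to-spot SD comes from 263 probes with at least 5 spots, in 8 bins of level. For probes dimmer than the mean level of the lowest bin it is held at the value of that bin. The scripts, in Python 3.11.15 with pandas 2.3.3 and R 4.3.3 with limma 3.58.1, were tested on simulated data. The number of arrays limits the precision.

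Every calpain system gene is named, with every probe. Of related lists, all other calpain family genes are named, and otherwise up to 4 genes past the counted size or, with none past it, the 2 furthest. Results for 1 list and 1 gene under this rule are not reported here. Casp12 was named after its values were seen. The genes and lists were chosen with earlier results of these data known. Lists of other marrow cell types were also measured, and the closing section gives them.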

Additional observations from a re-analysis of the deposited data

How the results depend on the processing

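The count of genes higher in Capn6-Ko by the counted size was 2. It was 0 after normexp and 1 with the brightest probe of each gene. With only probes above the median level, which leaves 7 genes and drops Capn3 and Capn15, it was 0. By that size 2.64% of all measured genes were higher, and 0.629% after normexp. With only probes above the median level 0.868% were, and with the brightest probe 2.71%. The count higher was 2 under the 8 other settings, where 2.25% to 8.07% of all genes were higher. The count lower was 0 under all 11, where 1.30% to 12.5% of all genes were lower. The median difference, 0.011, was 0.0760 with median scaling, 0.0631 after normexp and 0.0671 when scaled on the E1A control probes. The last scaling was added after the data were seen. Over all measured genes the median was 0.0592, 0.000925 and 0.0503 under these settings, in that order. For single genes, 93 values moved by less than their spot-to-spot SD and 4 by more: Capns1 with median scaling (0.096), Capn3 and Capn10 after normexp (0.18 and -0.051), and, with no filter on dim probes, Capn3 (0.10), where its dark probe enters. Without that filter 8.07% of all genes passed the counted size upward and 12.5% downward. The normexp setting adds an offset of 50, which draws dim signals together, and used the median spot signal, since the mean is not among the columns of the scanner files used here. Naming probes by a gene name column was not run for the same reason. No paired analysis was possible because each genotype has 1 array. Signals near background limit Capn6, 1 probe of Capn3, and most of the other calpain family genes.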

Other observations

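The genes that flank Capn6 on chromosome X were looked up by order in the GRCm38.p6 table, 5 protein-coding genes on each side. The nearest on one side, Pak3, a p21-activated kinase gene, had a signal of 9.58 in Capn6-Ko, not well above background, and 28.1 in Capn6-Wt, so it was at least 1.98-fold lower in Capn6-Ko, on 1 spot per array. Of the 785 probes lit on the Capn6-Wt array only, 94.3% had a bound past the counted size and 12.7% one of 2-fold or more, which Pak3 does not reach. The nearest on the other side, Dcx, was dark on both arrays with 3 probes. Of the others, 3 were measured and within the counted size: Tmem164 (0.17 ± 0.077), Ammecr1 (-0.062 ± 0.13) and Alg13 (0.14 ± 0.10). The Tmem164 value is a mean of 3 unlike probes. The dimmer ones were at 0.31 and 0.22, and the brightest, with 13706 in Capn6-Ko and 14211 in Capn6-Wt, at -0.034. Chrdl1, an antagonist of BMP signals, was lit on 1 of 3 probes in Capn6-Ko only, with 17.1 in Capn6-Ko and 8.94 in Capn6-Wt, at least 1.04-fold higher. The bounds for Pak3 and Chrdl1 also leave out the error of the spots. Rtl9, Trpc5 and Trpc5os were dark on both arrays, and A730046J19Rik had no probe.

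Markers of other marrow cells gave these medians, each over the measured genes of a list of 8: 0.27 for megakaryocytes and platelets (8 measured), 0.12 for osteoclasts (7), -0.016 for neutrophils (7), -0.19 for B cells (5), -0.23 for the erythroid list (3), -0.051 for endothelium (4), -0.065 for mast cells and basophils (2) and -0.024 for T and NK cells (3). By the counted size, 2 megakaryocyte, 2 osteoclast and 1 neutrophil markers were higher and 2 B cell markers lower in Capn6-Ko. Of all measured genes, 2.64% were higher and 5.53% lower by that size, and below the median level 4.6% were higher and 10.2% lower. The part of these cells in the calpain values was not tested.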
